A study of Oryza sativa Indica Group with 6 samples.

Results

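Among the 41770 transcript clusters of the array, 28 were cleanly lower in *Abp57*-overexpressing rice than in wild-type, once 7 clusters and CPS4 that were listed as defence genes had been left out. A transcript cluster is a set of probes that the array joins into a single signal, which need not stand for a single transcript. A cluster was taken when the lowest of its 3 wild-type log2 signals stood at least 0.5 above the highest of its 3 overexpression log2 signals, and this distance is called the gap here. The clusters were selected on these 6 signals, that is on the genotype difference itself, so their signals and differences are a description and carry no p-value. Without the exclusions 30 clusters met the gap, 0.0718% of the array, and the 28 that were kept are 0.0670% of it. In the opposite direction 92 clusters, 0.220%, stood higher with overexpression by the same gap. Leaving out 1 array can only raise these counts. With 1 array left out the lower count was 54 to 297 and the higher count 126 to 420, both highest without wild-type replicate 3.

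The wild-type group was 3 arrays of *indica* rice cultivar MR219, and the overexpression group was 3 arrays of T3 rice transformed with *Agrobacterium* to overexpress *Abp57*. Each array held RNA of a biological replicate of at least 3 whole seedlings, harvested at 10 days from MS medium, which the sample records give at reduced strength. The promoter of the transgene, the number of independent lines and the locus of *Abp57* on the array are not given in the sources used here. In RNA of whole seedlings, fewer cells of a type and less RNA per cell cannot be told apart.

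*Abp57* encodes auxin-binding protein 57, which was described in rice as a soluble protein that binds auxin and activates the proton pump of the plasma membrane. CIPK23 belongs to the protein kinases that are switched on by calcineurin B-like (CBL) calcium sensors, and in rice roots it activates the potassium channel AKT1. LPR1 is a multicopper oxidase of the family whose *Arabidopsis* members halt the growth of the primary root where phosphate is low. Bowman-Birk inhibitors, one of which lies next to a member on chromosome 1, are small seed and leaf proteins that block trypsin-like proteases.

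Of the 28 clusters, 14 were paired with exactly 1 gene in the platform table, or 50.0%, against 36.6% of all clusters. Supplement 1 of the study named 10, of which 6 had an MSU locus. It is the authors' list of genes called changed in the same contrast on these arrays. Being named there is therefore neither a measure of annotation nor independent of the selection. Of the 10, 4 were without a platform gene and are called by their BGI model. The remaining 10 were in neither table and are called by cluster number. The mean difference, overexpression minus wild-type, ran from -2.73 to -0.60 log2 with a median of -0.96, against -0.03 over all clusters. As folds, the signals were 1.52 to 6.63 times lower, with a median of 1.95. Gaps ran from 0.50 to 1.42 with a median of 0.587, and only 2 clusters had a gap of 1 or more.

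**Figure D1:**
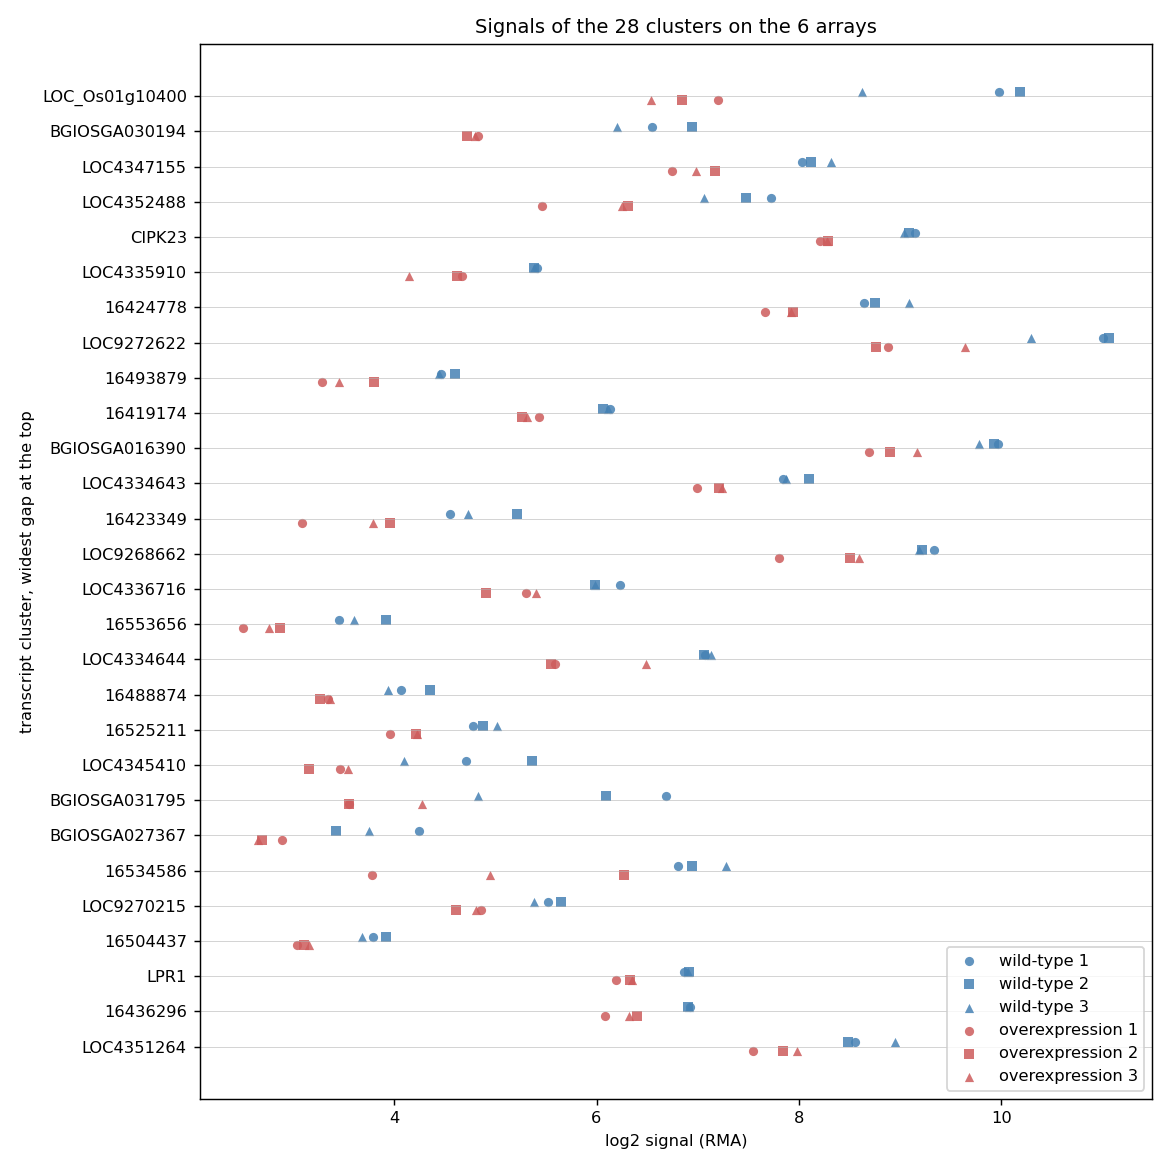
Log2 signal (x axis) of each of the 28 clusters (y axis, widest gap at the top) on the 3 wild-type arrays (blue) and the 3 overexpression arrays (red), with one marker shape per replicate number. All blue points of a row lie at least 0.5 above all red points, as the selection required, and the separation is widest for LOC_Os01g10400, at 1.42, and BGIOSGA030194, at 1.37.

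CIPK23 was among the most uniform of the selection. Its log2 signal was 9.15, 9.08 and 9.03 in wild-type replicates 1, 2 and 3 and 8.20, 8.29 and 8.28 in the overexpression replicates. The 6 arrays fell into 2 tight groups 0.75 apart, and its overexpression SD of 0.0449 was the smallest of the 28. The mean difference was -0.83, a signal 1.78 times lower. Among 19 measured CIPK kinases, a family looked up after the values were seen, 3 were lower without overlap of the genotypes and 4 were higher without overlap, and the median difference was 0.18. Over the array 7.53% of clusters were lower and 5.51% higher without overlap. CIPK15 was the next lowest of the family, with 9.03, 8.94 and 9.07 in wild-type and 8.25, 8.28 and 8.76 with overexpression, a difference of -0.58. CIPK30 differed by -0.32, while CIPK17, CIPK32, CIPK18 and CIPK2 were higher by 0.44 to 0.68. None of the 4 measured CBL sensors separated the genotypes. The signal of AKT1, the channel that CIPK23 acts on, was 6.37, 6.43 and 6.64 in wild-type and 7.13, 6.99 and 7.00 with overexpression. Its groups did not overlap, and with a difference of 0.56 it stood on the opposite side from CIPK23.

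LPR1 gave 6.86, 6.91 and 6.91 in wild-type and 6.19, 6.33 and 6.35 with overexpression. This was the smallest mean difference of the 28, -0.60, with a gap of 0.52 and a wild-type SD of 0.0252. The related genes LPR4 and LPR5, which lie within 5 genes of LPR1 on chromosome 1, differed by 0.02 and 0.03, with overlapping genotypes. LPR2, the gene next to LPR1, was not measured under a gene name of its own.

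LOC9268662, which carries the synonym pinA, has 13 protein-coding genes between it and LPR1 in the gene order of rice assembly ASM3414082v1. It gave 9.33, 9.22 and 9.18 in wild-type and 7.80, 8.50 and 8.59 with overexpression, a difference of -0.95. Overexpression replicate 1 was 0.70 below the nearest replicate, and without it the difference was -0.70. The genes on both sides of it were lower on average but did not meet the gap. LOC9271230, whose synonym RBBI3.3 is that of a Bowman-Birk inhibitor, gave 7.78, 7.94 and 6.29 in wild-type and 5.69, 6.32 and 6.15 with overexpression. Its wild-type replicate 3 lay among the overexpression arrays, so a mean difference of -1.28 came with overlapping genotypes. LOC4326000, on the other side, gave 6.69, 6.82 and 8.08 against 5.79, 6.57 and 6.68, and its genotypes were 0.01 apart.

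The exclusion of defence genes did not separate the members from their neighbours on chromosome 12. LOC4352488 (LOC_Os12g36850), a member, has 1 gene between it and LOC4352487 (LOC_Os12g36830), which met the gap and was left out. Signals of LOC4352488 were 7.73, 7.47 and 7.06 in wild-type and 5.47, 6.31 and 6.25 with overexpression, and those of LOC4352487 were 8.13, 8.40 and 6.90 against 5.23, 6.19 and 5.60. Differences were -1.41 for the member and -2.14 for the excluded gene, and both had their lowest signal of all on overexpression replicate 1. PBZ1, the pathogenesis-related gene named for its induction by probenazole, is on the list of exclusions and is the third cluster after LOC4352488 in number. It gave 8.00, 8.26 and 5.30 in wild-type and 5.08, 5.00 and 5.10 with overexpression, so that its gap was 0.19 and it would not have been taken. LOC4352489, between LOC4352488 and PBZ1, differed by -0.30 with overlapping genotypes. Of the 7 listed clusters only LOC4352487 met the gap, and CPS4, a diterpene synthase of phytoalexin formation, met it at 0.87.

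Beside these, the widest separation was that of cluster 16382979, given as LOC_Os01g10400 in Supplement 1. Its log2 signal was 9.97, 10.18 and 8.62 in wild-type and 7.20, 6.85 and 6.54 with overexpression. The difference of -2.73 is the largest of the 28, and wild-type replicate 3 lay 1.35 below the nearest wild-type replicate, so that it was -3.21 without that array. The name is uncertain, because the platform table pairs the cluster with LOC9270767, which lies 2824 genes or more from both clusters near it in number that could be placed. The table pairs 2 more clusters with LOC9270767, 16392334 and 16485743, which differed by -0.02 and -0.20 with overlapping genotypes. BGIOSGA030194 had the next widest gap, with 6.55, 6.94 and 6.20 in wild-type and 4.83, 4.72 and 4.80 with overexpression, a difference of -1.78. LOC4347155 (LOC_Os09g26620) gave 8.03, 8.12 and 8.32 against 6.75, 7.17 and 6.99, with a gap of 0.86. No role is annotated for these 3 in the tables used.

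LOC9272622 (LOC_Os02g32814) gave 11.00, 11.06 and 10.29 in wild-type and 8.88, 8.76 and 9.64 with overexpression. The replicates numbered 3 were closest to the other genotype on both sides, and the mean difference was -1.69. Cluster 16534586 had the widest spread of all within a genotype. It gave 6.80, 6.95 and 7.28 in wild-type and 3.79, 6.27 and 4.95 with overexpression, an overexpression SD of 1.24. Its difference of -2.01 was -1.40 without overexpression replicate 1 and -2.64 without replicate 2. BGIOSGA016390, at 9.97, 9.93 and 9.78 in wild-type, kept signals of 8.69, 8.90 and 9.17 with overexpression and was 1.96 times lower.

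On chromosome 3 a pair of adjacent genes were both members. LOC4334643 gave 7.84, 8.10 and 7.87 in wild-type and 6.99, 7.21 and 7.24 with overexpression, and its neighbour LOC4334644 (LOC_Os03g61160) gave 7.07, 7.06 and 7.13 against 5.59, 5.55 and 6.49. Differences were -0.79 and -1.21, and the spread within wild-type was small for both. The lower signal did not extend to the genes beside them. LOC4334642 differed by -0.08, and LOC4334647 and LOC4334648 were higher without overlap, by 0.24 and 0.44.

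On chromosome 7, CIPK23 and LOC9270215 were both members with 5 protein-coding genes between them, none of which was measured under a single gene. BGIOSGA024811, a cluster without a platform gene, is 2 places after CIPK23 in number. It gave 6.50, 6.45 and 5.85 in wild-type and 5.48, 5.10 and 5.61 with overexpression. Its difference was -0.87, without overlap of the genotypes. Cluster 16532797, between CIPK23 and BGIOSGA024811 in number, differed by -0.34 with overlapping genotypes. LOC9270215 gave 5.52, 5.65 and 5.39 in wild-type and 4.86, 4.61 and 4.81 with overexpression, a difference of -0.76. Both genes after it were lower without overlap but by less. LOC4342415 gave 7.96, 8.04 and 7.89 against 7.33, 7.31 and 7.65, and LOC4342416 gave 5.63, 5.66 and 5.63 against 5.39, 5.20 and 5.30. Further on, LOC4342420 was higher without overlap, by 0.65, and LOC4342421 lower, with a difference of -0.39. On the other side of CIPK23, LOC4342408 and LOC4342407 differed by 0.12 and 0.50.

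On chromosome 10, BGIOSGA031795 was the one member among nearby clusters of which some, but not all, shared a pattern over the arrays. It gave 6.69, 6.09 and 4.83 in wild-type and 3.55, 3.55 and 4.28 with overexpression. BGIOSGA031794, next in number, gave 5.73, 5.80 and 4.56 against 3.62, 3.96 and 4.07 and missed the selection with a gap of 0.490. LOC4348776, 3 places before, gave 7.64, 8.01 and 5.21 in wild-type and 5.19, 5.59 and 5.32 with overexpression. In all 3 of these clusters wild-type replicates 1 and 2 were high and wild-type replicate 3 was nearer to the overexpression arrays, and LOC4348777 had the same order, with 7.13, 7.14 and 4.72 against 3.59, 5.19 and 4.70. Cluster 16413993, just before BGIOSGA031795 in number, did not share the pattern, with 3.28, 3.18 and 3.17 against 2.89, 3.27 and 3.40. Cluster 16414000, 2 places after BGIOSGA031795, gave 7.33, 7.37 and 4.90 against 5.20, 6.70 and 6.03. It was low on wild-type replicate 3, but its difference was only -0.55 with overlapping genotypes. For BGIOSGA031795 the difference was -2.59 without wild-type replicate 3, beside -2.08 with it.

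BGIOSGA030194 lay between clusters of opposite direction. Cluster 16555911, next after it in number, gave 6.38, 6.73 and 4.27 in wild-type and 2.67, 2.94 and 4.37 with overexpression, a mean difference of -2.46 with overlap through the replicates numbered 3. BGIOSGA030196, 2 places before it, gave 7.33, 6.70 and 6.44 in wild-type and 8.75, 8.83 and 8.50 with overexpression, higher by 1.87 without overlap. LOC4346450, the cluster between them, differed by 0.18. Among single neighbours of other members, LOC4336717 beside LOC4336716 and cluster 16534584 beside 16534586 were lower without overlap, by differences of -0.74 and -0.78.

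**Figure D2:**
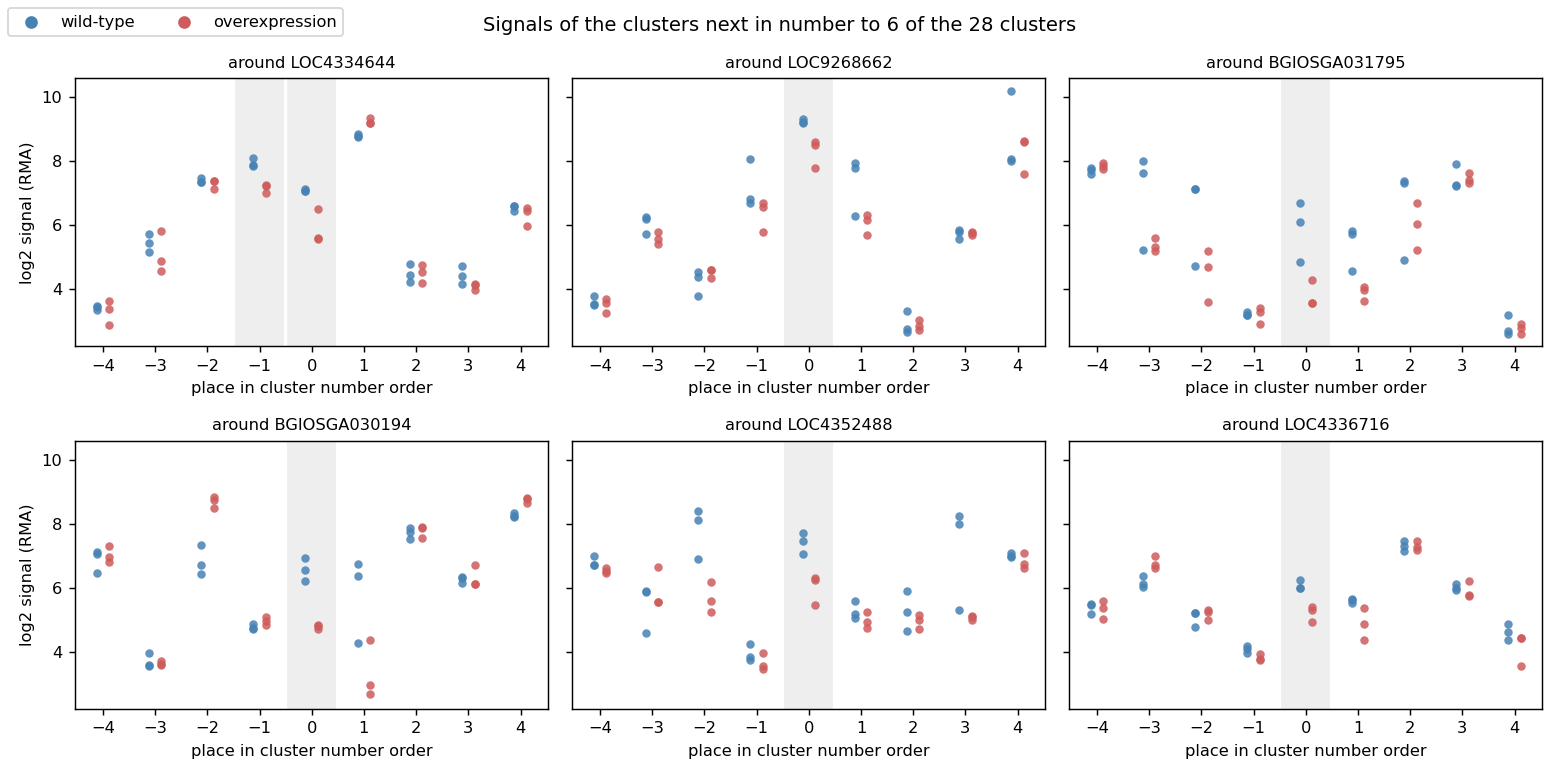
Log2 signals (y axis) of wild-type (blue) and overexpression arrays (red) for the clusters up to 4 places before or after 6 of the members in cluster number order (x axis). Grey bands mark members. The replicates of a genotype share 1 marker. LOC4334643 and LOC4334644 stand side by side, and the second cluster before BGIOSGA030194 is higher with overexpression. BGIOSGA031795 and some of the clusters around it have 1 wild-type point well below the other 2.

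Over all members, the clusters next in number were counted, since cluster numbers largely follow the chromosomes. Of 6691 consecutive pairs of placed clusters, 97.5% were on the same chromosome, and in 88.4% of those the genes were at most 3 apart. Of the 54 neighbours that were no members, 7 were lower without overlap, 13.0% beside 7.53% of all clusters. Higher without overlap were 2 of the 54, beside 5.51% of all clusters. A difference of -0.5 or lower was found in 7 of them, 13.0% beside 2.22% of all clusters. The median over the neighbours was -0.09. Members and neighbours share their arrays and may share probes or transcripts, so these counts are a description.

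The other named members separated the genotypes with less than 1.5 log2 between the means. LOC4335910 gave 5.41, 5.38 and 5.38 in wild-type and 4.67, 4.62 and 4.15 with overexpression, with a gap of 0.71. LOC4336716 gave 6.23, 5.99 and 5.98 against 5.30, 4.91 and 5.40, and LOC4351264 gave 8.55, 8.48 and 8.95 against 7.55, 7.84 and 7.98. Both were lower on every overexpression array by at least the required 0.5, LOC4351264 with a gap of only 0.5016. LOC4345410 (LOC_Os08g28670) gave 4.71, 5.36 and 4.10 in wild-type and 3.46, 3.16 and 3.54 with overexpression, and BGIOSGA027367 gave 4.25, 3.43 and 3.75 against 2.90, 2.70 and 2.66. For LOC4345410 no cluster near it in number could be placed, so its name was not checked against gene order.

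Besides cluster 16534586, the members known only by number were moderate in difference. Cluster 16424778 gave 8.64, 8.75 and 9.08 in wild-type and 7.66, 7.94 and 7.93 with overexpression. Cluster 16423349 gave 4.55, 5.22 and 4.73 against 3.09, 3.96 and 3.79, a difference of -1.22, the largest of this group after 16534586. Clusters 16493879, 16419174, 16553656, 16488874, 16525211, 16504437 and 16436296 differed by -0.99 to -0.64. The most even wild-type signals of the whole selection belonged to 16436296, at 6.92, 6.91 and 6.91, an SD of 0.0074. Its overexpression signals were 6.08, 6.40 and 6.32, and its gap of 0.5026 was barely enough.

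The edge of the selection fell within a continuous range of gaps. Just inside were LPR1 at 0.518, cluster 16436296 at 0.503 and LOC4351264 at 0.502, and just outside were cluster 16416624 at 0.498, LOC4333896 at 0.498 and BGIOSGA031794 at 0.490. LOC4333896, with the synonym OsGS1;3, is a cytosolic glutamine synthetase gene, an enzyme that joins ammonium to glutamate. It gave 6.38, 6.44 and 6.53 in wild-type and 5.43, 5.88 and 5.63 with overexpression, a difference of -0.80. A gap also leaves out large mean differences with 1 deviating array. Over the array 87 clusters, 0.208%, had a mean difference of -1 or lower, and 11 members were among them. Of the 87, 74 did not meet the gap, and 51 of these would have met it without wild-type replicate 3. Without wild-type replicate 1 it was 2 of them, and without wild-type replicate 2 also 2. For this count the overexpression arrays were not left out in turn.

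**Figure D3:**
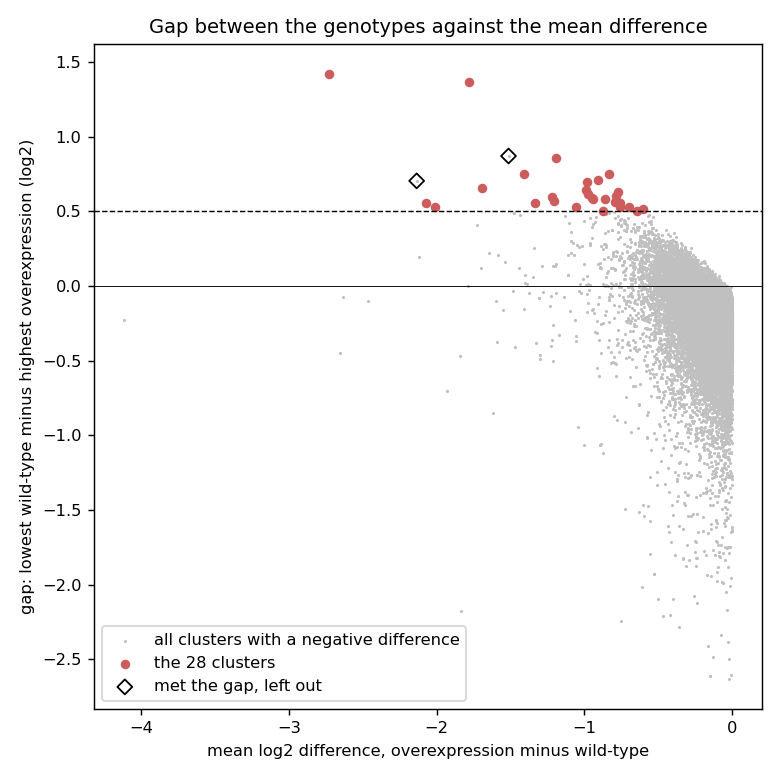
Gap between the genotypes in log2 (y axis) against the mean log2 difference, overexpression minus wild-type (x axis), for every cluster with a negative difference (grey), the 28 members (red) and the 2 that met the gap and were left out (diamonds). The dashed line is the gap of 0.5, and the 74 other clusters at a difference of -1 or lower lie below it.

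The mean wild-type log2 signal of the members ran from 3.66 to 10.8 with a median of 6.73, and the mean overexpression signal from 2.72 to 9.09 with a median of 5.27. The selection used these signals, and signals on a log2 RMA scale are relative to each cluster's own probes, so they are not ranked between clusters.

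The spread within a genotype differed widely between members. Wild-type SDs ran from 0.0074 to 0.949 with a median of 0.144, beside 0.196 over all clusters, and were under 0.1 in 9 members. Overexpression SDs ran from 0.0449 to 1.24 with a median of 0.209, beside 0.188. Replicate 3 was the lowest wild-type array in 14 members, 50.0% beside 39.0% of all clusters. It stood at least 0.5 below both other wild-type arrays in 4 members, beside 7.73% of all clusters. These were LOC_Os01g10400, LOC9272622, LOC4345410 and BGIOSGA031795. Wild-type replicate 3 stood at least 0.5 above both others in 0 members, beside 6.23% of all clusters. Replicate 1 was the lowest overexpression array in 17 members, 60.7% beside 41.8% of all clusters. It stood at least 0.5 below both others in 4 members, LOC4352488, 16423349, LOC9268662 and 16534586, beside 4.18% of all clusters. Above both others by as much it stood in 0 members, beside 5.32% of all clusters. Overexpression replicate 3 stood at least 0.5 above both others in 3 members, LOC9272622, LOC4334644 and BGIOSGA031795, beside 1.93% of all clusters. Leaving out 1 array moved the difference of a member by at most 1.43 times, in 16534586.

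**Figure D4:**
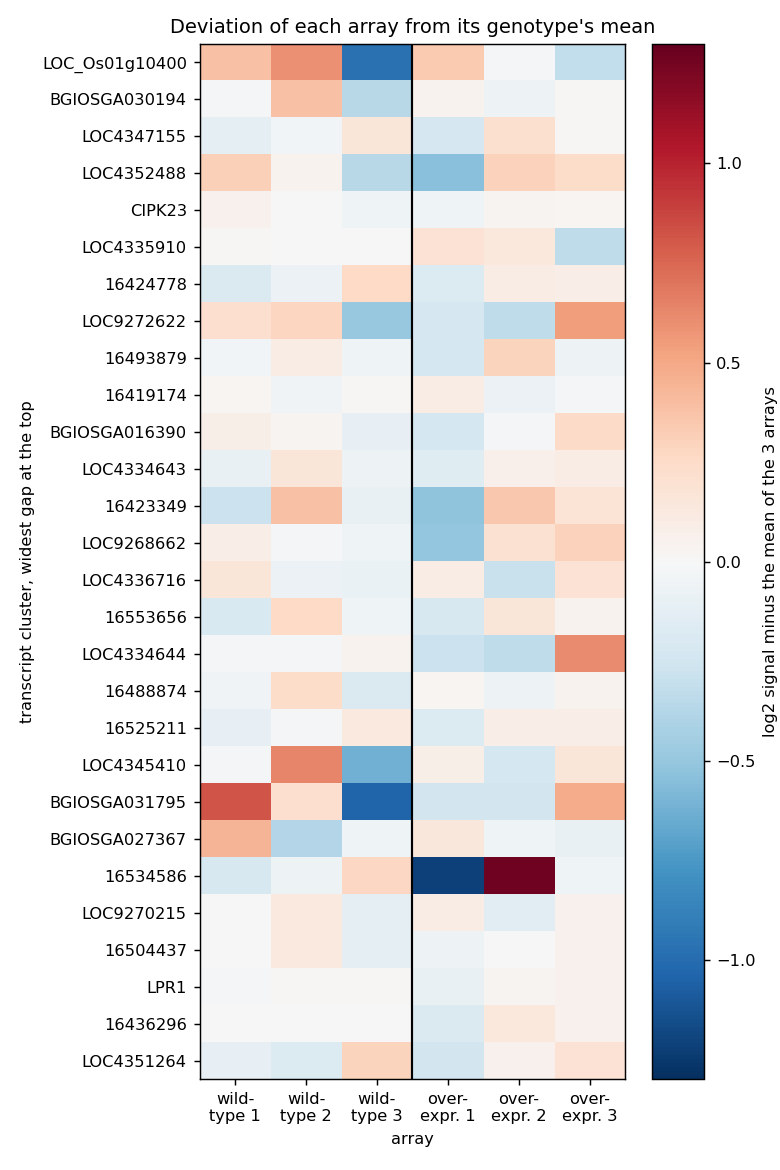
Deviation of each array (x axis) from the mean of its genotype, in log2 (colour), for each of the 28 clusters (y axis, widest gap at the top). Wild-type replicate 3 is the lowest wild-type array in 14 rows, overexpression replicate 1 is the lowest overexpression array in 17, and cluster 16534586 has the widest spread, with an SD of 1.24.

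Over the whole array the signals ran from 1.25 to 13.9 and the array medians from 5.21 to 5.30. Wild-type replicate 3 also stood apart in some marker genes that are no members. For 6 measured markers of dividing cells the median deviation from the 6-array mean was -0.805 there. It was 0.543 and 0.613 on the other wild-type arrays, beside -0.392 to 0.225 with overexpression. Of these markers CycB1-1 went another way, with 5.15, 4.53 and 4.71 in wild-type, lowest on replicate 2. The median over 3 shoot markers lay between -0.103 and 0.229 on the 6 arrays. RBCS, the small subunit of the carbon-fixing enzyme Rubisco, was at 11.66 on wild-type replicate 3 and between 12.72 and 13.05 on the other arrays. Of the other shoot markers, CAB1R gave 9.76, 9.87 and 10.06 in wild-type, highest on replicate 3. CAB2R gave 6.61, 6.59 and 6.41 in wild-type and 6.28 to 6.70 with overexpression. Of the root list 2 genes were measured, with a median deviation of -0.882 on wild-type replicate 3 and between 0.069 and 0.249 on the other arrays. Heat stress genes, of which 18 were measured, did not set this array apart, with a median deviation of 0.091 there. Their medians were -0.202 and 0.031 on the other wild-type arrays and -0.107 to 0.127 with overexpression. The part of these differences in the signals of the members was not tested.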

How the data were processed

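Scans of 6 Rice (Cn) Gene 1.0 ST arrays were normalized by the authors in Affymetrix Expression Console with RMA, and log2 signals of 41770 transcript clusters were deposited. Their own comparison was run in Transcriptome Analysis Console, and only names from its list, Supplement 1, were used. Versions are not given in the sources used here. Probe intensities were not used, and the number of arrays limits the precision.

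The deposited log2 signals were used unchanged. Means, SDs, differences and gaps were computed with numpy 2.4.6 and pandas 2.3.3 in Python 3.11.15, cyclic loess with limma 3.58.1 in R 4.3.3, and figures with matplotlib 3.10.9. The members and gene lists were chosen with earlier results of these data known, and the CIPK, CBL, LPR and AKT1 genes, like the neighbours, were described after their values were seen. Named in the text are the clusters of widest gap and largest difference, those in runs of neighbours and those at the edge of the selection, with all other members added.

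Names came from the platform table where it gave 1 gene, otherwise from Supplement 1, of which only names were used. The exception is cluster 16382979, called LOC_Os01g10400 after Supplement 1 because gene order went against its platform gene. Gene order came from assembly ASM3414082v1 of another subspecies, so no coordinates are given. Planned promoter motif counts, protein comparisons and families by gene description were not run, since sequences and descriptions were not used here. The alternatives were other normalizations, other gaps, a filter on dim clusters, counting clusters with the same 6 signals once, clusters with 1 gene, Tukey's biweight, a replicate block and each array left out.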

Additional observations from a re-analysis of the deposited data

How the results depend on the processing

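The count of 28 clusters changed most with the size of the gap and with wild-type replicate 3 left out. It was 136 at a gap of 0.3, 2 at a gap of 1 and 14 among clusters paired with 1 gene. Leaving out 1 array, which can only widen a gap, gave 54 to 297 clusters, the highest number without wild-type replicate 3. A replicate block, with wild-type minus overexpression of at least 0.5 within each replicate number, gave 98. The labels do not say whether the numbers pair the arrays, and this was not tested. As a description, deviations of same-numbered arrays from their genotype means correlated at 0.345, -0.110 and 0.206 for replicates 1, 2 and 3 over all clusters. Repeated quantile normalization gave 33, with 26 of the 28 kept, and cyclic loess gave 29, with 24 kept. BGIOSGA027367 and LOC9270215 were lost under both, and clusters 16488874 and 16436296 under cyclic loess. Without the dimmest 25% of clusters the count was 24. The median difference of the members stayed between -1.03 and -0.85 and their median wild-type signal between 6.63 and 6.81 under the alternatives run.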
